A study of Mus musculus with 2 samples.

Results

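The genes Gata4, Gata5, Gata6, Nkx2-5, Tbx5, Tbx20, Hand1, Hand2, Isl1 and Irx4 encode DNA-binding factors known for building and maintaining the heart. All 10 were found by symbol among the 55536 annotated genes of the deposited tables, each with a single gene identifier. RNA was extracted from 2 heart samples of female B6CASTF1/J mice, a first-generation cross of C57BL/6J and CAST/EiJ, at an age of 4 days, and sequenced as stranded, ribosome-reduced total RNA with added ERCC spike-ins from 300 ng of input. The labels number them as biological replicates 1 and 2 and name separate tissue samples, but give both the same donor identifier, so the spread between them may be partly technical. The samples are whole heart tissue, with no sorting or dissection of chambers stated, so fewer cells of a type and less RNA per cell cannot be told apart.

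The members belong to 6 families of transcription factors. The GATA factors bind DNA through zinc fingers, T-box factors through the T-box, NK2, LIM and Iroquois factors through homeodomains, and HAND factors through a basic helix-loop-helix as partners of E proteins. In the embryo GATA4, NKX2-5 and TBX5 act together on cardiomyocyte genes, TBX20 is needed for chamber growth and valves, HAND1 and HAND2 are known from the ventricles, ISL1 marks second heart field progenitors and later the sinoatrial node, and IRX4 marks ventricular muscle. Mutations of several of them cause congenital heart disease.

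There is a single group, so the design holds no contrast between conditions. A permutation of the libraries could not give a p below 0.5, and no p-value was computed. The data were used to describe levels, the share of each family, transcript use, neighbouring genes and the difference between the libraries. Expected counts over annotated genes totalled 35964801 in replicate 1 and 32331718 in replicate 2. The cardiomyocyte markers Tnnt2, Actc1, Myh6, Ryr2, Pln and Tnni3 summed to 21550 and 21370 TPM (a level scaled for transcript length and library size) and all 6 stood above 1 TPM.

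The 10 genes fell into a group of 7 that were well expressed and a group of 3 that were near or below 1 TPM. Tbx20, Gata4, Gata6, Nkx2-5, Hand2, Irx4 and Tbx5 exceeded 1 TPM in both hearts, while Gata5, Hand1 and Isl1 did not. Over all annotated genes 24.1% passed that mark in both hearts, and over nuclear protein-coding genes 54.2% did. Members were selected as known heart genes, so their share is a description.

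Among the GATA factors, Gata4 (mm10 chromosome 14, 63198922 to 63271692, minus strand), a zinc-finger activator of cardiomyocyte genes, stood at 101 TPM in replicate 1 and 108 in replicate 2. Its mean of 104 ± 4.40 (SD, n = 2) exceeded that of 94.3% of the expressed nuclear protein-coding genes. Gata6 (chromosome 18, 11052064 to 11085635), its close relative, had 66.8 and 74.1 TPM. The level of Gata4 lay above that of Gata6 in both hearts, with a log2 ratio of 0.57 ± 0.04, which is 1.48-fold. Gata5 (chromosome 2, 180325133 to 180334699), known for its part in endocardial and valve development, had only 98 and 51 expected counts, or 1.10 and 0.65 TPM. Gata4 was 123-fold above Gata5 in level.

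Of the T-box factors, Tbx20 (chromosome 9, 24718138 to 24774303, minus strand) was the highest of all 10 genes at 151 and 152 TPM. Its 24927 and 22394 counts were also the most. Tbx5 (chromosome 5, 119832668 to 119885219), the gene of Holt-Oram syndrome, had 16.2 TPM in replicate 1 and 16.3 in replicate 2. The level of Tbx20 was 9.31-fold that of Tbx5, with a log2 ratio of 3.22 in both hearts, and 6.43-fold in the second quantification described further on.

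Nkx2-5 (chromosome 17, 26838664 to 26845009, minus strand), the cardiac homeodomain factor, had 54.7 and 59.6 TPM from 2187 and 2082 counts. Irx4 (chromosome 13, 73260479 to 73269608) had 23.6 and 27.1 TPM. Hand2 (chromosome 8, 57320983 to 57324633) had 27.5 and 28.9 TPM. The other HAND gene, Hand1 (chromosome 11, 57828705 to 57832818), was near the limit of detection with 18 and 20 counts, or 0.36 and 0.45 TPM, and exact 95% Poisson intervals of 10.7 to 28.4 and 12.2 to 30.9 counts. Hand2 exceeded Hand1 in level 70.1-fold, with a log2 ratio of 6.13 ± 0.18. Isl1 (chromosome 13, 116298281 to 116309689) was lowest with 12 counts in replicate 1 and 2 in replicate 2, which is under the 3 counts that a count of 0 allows. Intervals and limits of this kind hold counting error alone, because no molecular identifiers are stated for the reads, which may be copies of one molecule.

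**Figure D1:**
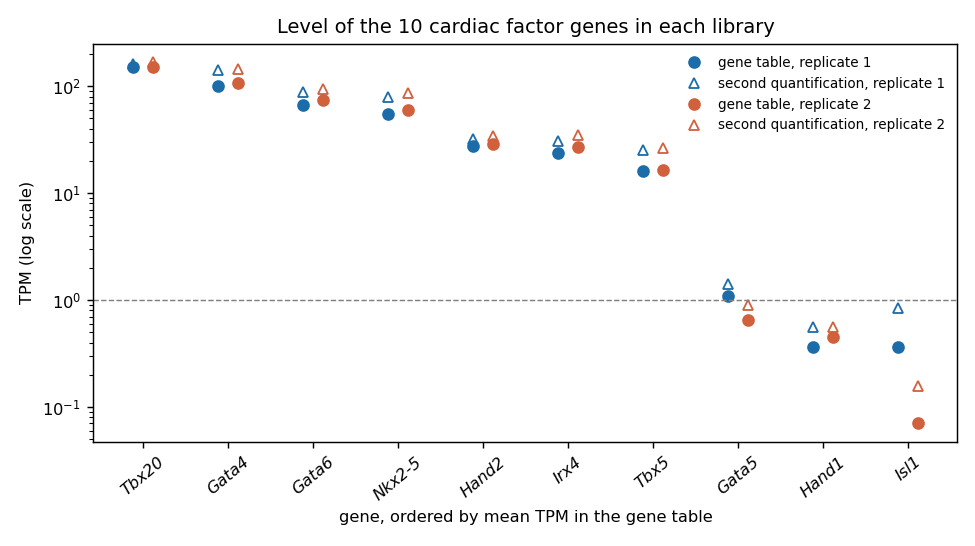
TPM of each gene on a log axis, by library (blue replicate 1, orange replicate 2), in the gene table (filled circles) and in the second quantification (open triangles), with a dashed line at 1 TPM. The 7 genes on the left stand at 16.2 TPM or more in every library, and Gata5, Hand1 and Isl1 at 1.43 TPM or less.

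Ranked by mean TPM, the order was Tbx20, Gata4, Gata6, Nkx2-5, Hand2, Irx4, Tbx5, Gata5, Hand1 and Isl1. Of the 9 neighbouring pairs in that order, 8 had libraries that did not overlap. The exception was Hand1 and Isl1, whose values met at 0.36 TPM. Hand2 and Irx4 were separated by a narrow margin, at a lowest Hand2 value of 27.5 and a highest Irx4 value of 27.1. A second quantification, the transcript tables with the kallisto column layout summed per gene, gave the same order but overlapping libraries for Hand2 (32.4 and 34.1 TPM) and Irx4 (30.7 and 35.0). Its TPM values were higher for all 10 genes, by 1.09-fold for Tbx20 to 1.58-fold for Tbx5 and 2.32-fold for Isl1. The median expressed protein-coding gene was 1.30-fold higher there, with quartiles of 1.20 and 1.46.

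The distance of Tbx20 from the rest depended on whether length was taken into account. By CPM, counts scaled to a common total without regard to length, Tbx20 reached 693 in both hearts and Gata4 194 ± 6.95. The gap between them widened from 1.45-fold by TPM to 3.57-fold by CPM. The effective length of Tbx20 was 5882 and 6001 nt, against 2394 and 2439 nt for Gata4. The order of the 10 genes was the same by CPM, but there the libraries of Hand2 and Irx4 overlapped and those of Hand1 and Isl1 did not.

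Within the lists of family genes chosen here, most of the expressed members took the largest share of the TPM. Nkx2-5 held 99.9% ± 0.0451 of the summed TPM of 9 NK-class genes, and Nkx2-1, Nkx2-2, Nkx2-4, Nkx2-6 and Nkx3-2 had 0 counts in both hearts in the gene table. Nkx2-1 is a lung and thyroid factor and Nkx2-6 a relative active in the embryonic pharynx and heart. Gata4 and Gata6 held 55.0% ± 0.439 and 37.1% ± 0.847 of a list of 7 GATA-type genes, and Gata5 0.466%. Gata2, a factor of endothelial and blood progenitor cells, followed at 6.76 and 7.10 TPM, and Trps1, an atypical GATA repressor, at 6.50 and 6.18. Gata1, the erythroid factor, had 2 and 1 counts, and Gata3 44 and 24.

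Tbx20 held 71.8% ± 0.955 of the T-box list of 17 genes and Tbx5 7.71% ± 0.111. Mga, a large protein with both a T-box and a helix-loop-helix, was second at 22.9 and 24.3 TPM. Tbx2 and Tbx3, repressors of the chamber program known from the atrioventricular canal and conduction system, had 5.03 and 6.16, and 6.38 and 7.15 TPM. Tbx18, of epicardium and sinus venosus, had 6.14 and 7.13. The other T-box genes stayed under 1 TPM, including Tbx1 of the second heart field (0.30 and 0.34) and the mesodermal factors Eomes and T, and Tbx10 and Tbx22 had 0 counts in the gene table.

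No Iroquois or helix-loop-helix gene reached the share that Tbx20 or Gata4 had in its list. Irx4 held 48.0% ± 0.928 of the list of 7 Iroquois-type genes, followed by Irx3 (10.6 and 12.7 TPM), which is known from the ventricular conduction system. Irx1, Irx2 and Irx5 lay between 4.51 and 5.49 TPM, while Irx6 had 0 and 3 counts. Hand2 held 37.7% ± 0.818 of 8 helix-loop-helix genes, ahead of Tcf21 of epicardium and fibroblasts (17.1 and 18.2 TPM) and Tcf15 (13.1 and 15.4). That list leaves out the E proteins, so the lead of Hand2 holds within the list only. Of these, Tcf4 (96.3 and 105 TPM) and Tcf12 (34.3 and 38.4) stood above Hand2, and Tcf3 (26.65 and 27.02) below it. All 6 helix-loop-helix relatives in the list passed 1 TPM. Besides Tcf21 and Tcf15 they were Scx, a tendon and valve factor (5.72 and 6.42), Msc (4.17 and 3.47), Twist2 (1.82 and 2.89) and Twist1 (2.05 and 2.13). In the LIM list a relative led, Lhx6, at 2.95 and 2.93 TPM or 73.4% and 85.2% of the list. Isl1 held 8.96% in replicate 1 and 2.03% in replicate 2, while Isl2, Lhx1, Lhx3, Lhx4 and Lhx5 had 0 counts in the gene table.

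**Figure D2:**
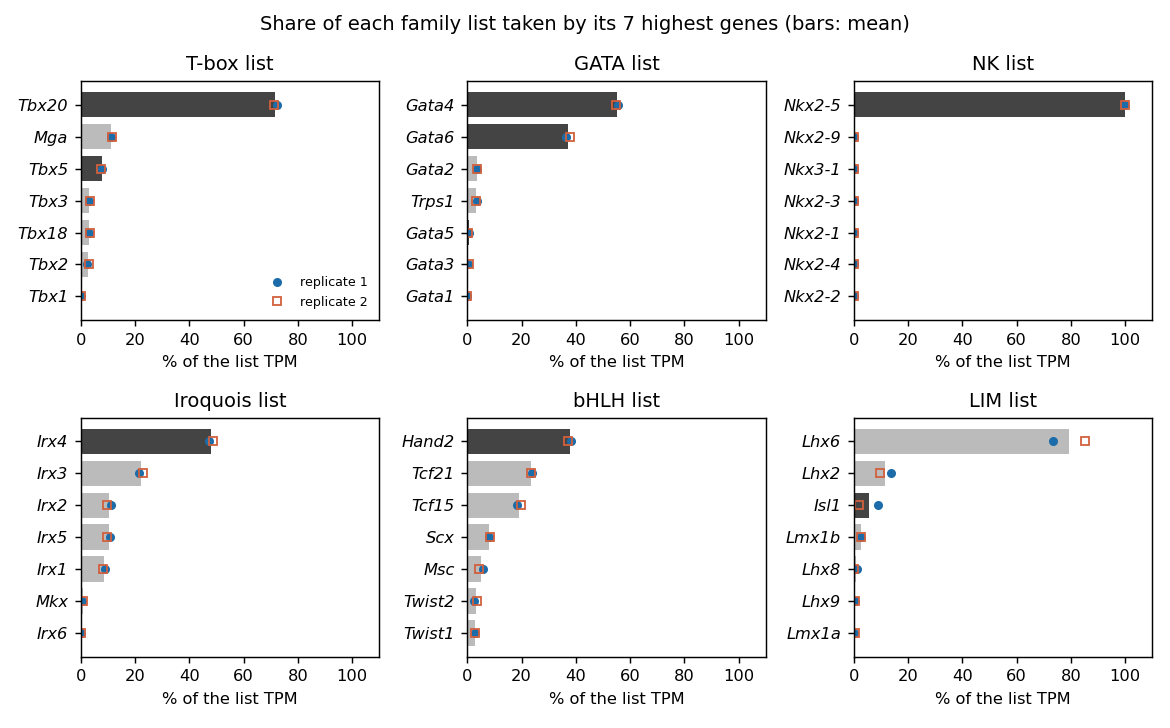
Share of the summed TPM of each family list (x axis, percent) taken by its 7 highest genes, with bars for the mean of 2 libraries, dots for each library, dark bars for the cardiac factors and grey bars for relatives. Nkx2-5 fills nearly all of its list, Tbx20 71.8% of the T-box list and Gata4 with Gata6 most of the GATA list.

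Start-site sequences were available from RefSeq (GRCm38.p6) for Gata5, Nkx2-5, Tbx20, Hand2, Isl1 and Irx4, covering 250 bases before to 50 after the start. Those of the highest gene, the lowest gene and Hand2, whose window also holds starts of an antisense RNA, are printed 5′ to 3′ on the gene's strand, with matches to the searched motifs in capitals. The windows are chr9:24774254-24774553 (minus strand), chr8:57320733-57321032 (plus strand) and chr13:116309639-116309938 (minus strand).
Tbx20: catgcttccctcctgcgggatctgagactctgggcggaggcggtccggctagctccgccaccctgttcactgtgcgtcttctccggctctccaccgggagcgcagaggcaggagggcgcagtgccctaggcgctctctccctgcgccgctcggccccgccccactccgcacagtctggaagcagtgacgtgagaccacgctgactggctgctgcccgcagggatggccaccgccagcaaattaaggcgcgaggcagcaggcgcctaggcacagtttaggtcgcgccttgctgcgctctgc
Hand2: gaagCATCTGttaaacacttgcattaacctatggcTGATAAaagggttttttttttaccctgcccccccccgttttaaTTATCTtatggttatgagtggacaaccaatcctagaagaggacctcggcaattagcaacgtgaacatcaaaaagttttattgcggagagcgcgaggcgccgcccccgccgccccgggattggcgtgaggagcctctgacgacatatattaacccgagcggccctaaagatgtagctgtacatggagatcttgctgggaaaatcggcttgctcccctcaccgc
Isl1: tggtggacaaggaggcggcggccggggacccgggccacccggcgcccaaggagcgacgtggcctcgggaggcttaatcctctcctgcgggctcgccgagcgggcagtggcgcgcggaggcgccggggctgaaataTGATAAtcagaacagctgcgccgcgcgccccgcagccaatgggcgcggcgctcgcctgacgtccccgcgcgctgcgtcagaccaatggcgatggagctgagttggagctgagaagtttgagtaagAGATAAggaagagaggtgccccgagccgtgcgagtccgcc
The letters searched on both strands were the GATA motif (AGATAA and also TGATAA, with AGATAG and also TGATAG), the NK2 motif TNAAGTG, the T-box core AGGTGT and the HAND E-box CATCTG. The Hand2 window held 2 GATA matches, starting 215 and 172 bases before the start site, and a CATCTG 246 bases before it. The Isl1 window held 2 GATA matches, 115 bases before and 10 bases after the start. The windows of Gata5, Nkx2-5, Tbx20 and Irx4 held none of these letters. Of 32851 windows of this length, 29.8% held the GATA letters, 11.5% the NK2, 13.7% the T-box and 17.2% the E-box letters. The Tbx20 window was rich in G and C at 68.3% with 26 CpG, as was that of Isl1 at 69.0% with 37 CpG, against medians of 52.7% and 7 CpG over all windows. The windows of the highest and the lowest gene thus differed little in G and C.

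Several members lie beside noncoding genes that were also detected. The library was stranded per the labels, but how strand was used in counting is not given in the sources used here. Hand2os1 (chromosome 8, 57281117 to 57324233, minus strand), the antisense RNA that runs away from Hand2 and is known to be transcribed through its upstream enhancers, had 2644 and 2363 counts against 1739 and 1600 for Hand2. By level it stood at 89.4 and 96.2 TPM, 3.29-fold above Hand2, with a log2 ratio of 1.72 ± 0.02 in the gene table and 2.14 in the second quantification. Of its 37 annotated transcripts, 13 start inside the Hand2 window printed above and held 30.0% and 31.1% of its TPM. The 25 that start up to 1000 bases before the Hand2 start held 73.7% and 76.4%. The annotated span covers 89.0% of Hand2, but in the RSEM-layout table the transcripts that reach past the Hand2 start had 2 and 0 counts. In the second quantification the same 3 transcripts had 193 and 223 counts, or 6.51% and 7.52% of the TPM. Gm34030 (10.5 and 10.2 TPM) and 5033428I22Rik (5.77 and 6.37 TPM) lie 7059 and 7485 bases beyond Hand2.

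At Gata6 the divergent noncoding 1010001N08Rik (chromosome 18, 10987944 to 11052567, minus strand) overlaps the first 504 bases of the gene. It had 281 and 333 counts, or 17.1 and 23.8 TPM, and Gata6 was 3.49-fold above it. Gm43050 lies 748 bases before Tbx5 on the other strand and had 73 and 48 counts, or 8.01 and 5.76 TPM. Tbx5 was 2.40-fold above Gm43050 in the gene table and 4.70-fold in the second quantification, so this gap is uncertain. The antisense Gata5os had 4 and 0 counts, and Gm29824, 2164 bases before Tbx20, had 13 and 12. Neil2, a DNA repair gene 5066 bases beyond Gata4, had 63 and 51 counts, and Gm48000, 3622 bases beyond Irx4, had 1 and 3. No annotated gene lay within 10 kb of Nkx2-5, Hand1 or Isl1. Opposite-strand RNA above 1 TPM thus lay beside Hand2, Gata6 and Tbx5.

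**Figure D3:**
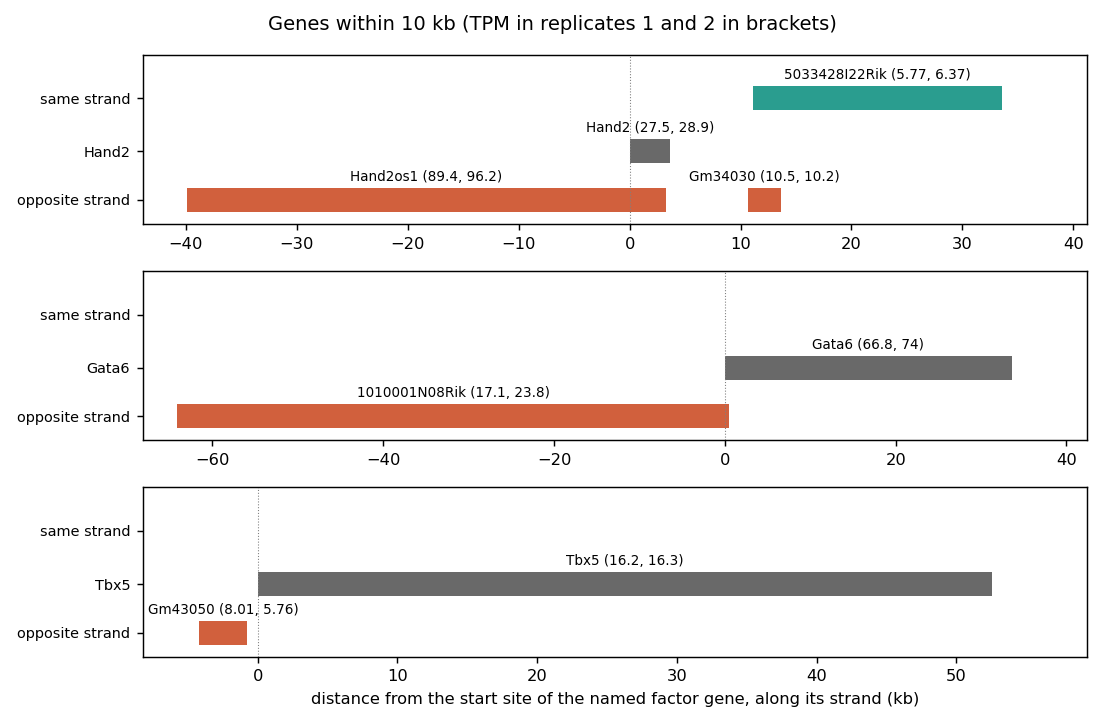
Spans of Hand2, Gata6 and Tbx5 and of the annotated genes within 10 kb of each, in kilobases from the start of the factor gene, by strand, with TPM in replicates 1 and 2 in brackets. Hand2os1 at 89.4 and 96.2 TPM stands above Hand2, while 1010001N08Rik and Gm43050 stand below Gata6 and Tbx5.

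The 10 genes have 34 annotated transcripts, and Hand2 and Gata5 have a single one each. Of the 8 others, 7 had the same leading transcript by TPM in both hearts in the RSEM-layout table, and for 4 the second quantification named that transcript in both hearts as well. Those 4 were Tbx20, Gata6, Nkx2-5 and Tbx5. Tbx20-201 held 56.8% and 58.1% of the Tbx20 TPM and 86.9% and 87.1% of its counts. The shorter Tbx20-202, which starts 19 bases away, held 30.7% and 34.2% of TPM, and the retained-intron transcript Tbx20-205 held 6.60% and 5.32%. Gata6-201 held 78.8% and 78.2% of the Gata6 TPM, and retained-intron transcripts of Gata6 together 15.4% and 12.6%. Total RNA also holds unspliced RNA, and its part in these shares was not tested.

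Gata4, Gata6 and Tbx5 had 3 starts each when transcripts whose starts lie within 1000 bases were joined. The main start of Gata6 held 89.5% and 91.9% of its TPM and that of Tbx5 78.8% and 75.4%. By counts the main starts held more, 98.3% and 98.6% for Gata6 and 93.4% and 92.7% for Tbx5. The other Gata6 starts are those of the retained-intron transcripts Gata6-204 and Gata6-205. For Gata4 the TPM was divided further, and Gata4-201 and Gata4-202 formed the main start with 58.5% and 62.4% of the TPM. The start 26.4 kb upstream, of Gata4-204, Gata4-205 and Gata4-206, held 27.5% and 27.1%. The start 31.6 kb downstream, of Gata4-203, held 14.0% and 10.5%. The quantifications gave the upstream start to different transcripts, Gata4-204 in the RSEM-layout table and Gata4-205 in the second, but its share in the second was close, at 31.5% and 30.1%. The upstream transcripts have 2 annotated exons each. By counts the upstream share was 6.36% and 6.16%, from 433 and 397 counts.

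For Nkx2-5 and Irx4 the split depended on the quantification. Nkx2-5-202, which starts 3444 bases upstream of Nkx2-5-201, held 0.512% and 1.59% of the TPM in the RSEM-layout table but 34.1% and 32.5% in the second, from 9.75 and 29.3 counts against 715 and 655. Irx4-202 held 75.1% and 56.8% in the RSEM-layout table and 47.3% and 45.5% in the second. The Irx4 transcripts start 18 bases apart, and the tables disagree on which of them leads. Tbx5-201, the full-length form, held 78.8% and 75.4% of the Tbx5 TPM, and 66.2% and 58.3% in the second. For Hand1 the tables named different transcripts, Hand1-201 and Hand1-203, and Isl1 had too few reads for any statement on its transcripts.

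**Figure D4:**
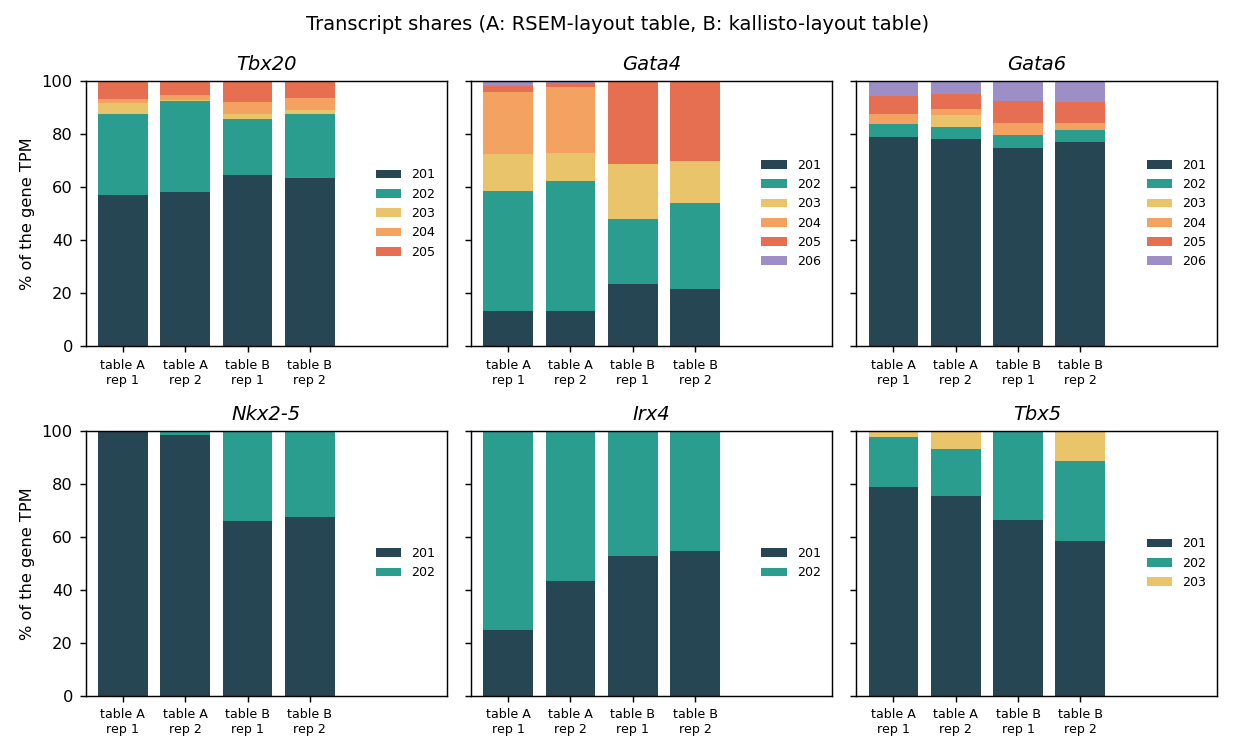
Percent of each gene's TPM in its annotated transcripts (colours, by transcript number), in the RSEM-layout table (A) and the kallisto-layout table (B) of both libraries. Tbx20, Gata6 and Tbx5 are led by 201 throughout, whereas Nkx2-5-202 takes 34.1% and 32.5% of table B and 0.512% and 1.59% of table A.

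Between the hearts the expressed members were nearly level. A gene was called at a 2-fold ratio of scaled counts with a mean of at least 1 TPM, at least 20 counts and an exact 95% interval that excludes equality, a rule that compares 2 libraries and has no replicate check. Of the 7 members that could be tested none was called, where 117 of 13598 genes (0.86%) were. The log2 ratios of replicate 2 over replicate 1 ranged from -0.13 for Tbx5 to 0.14 for Irx4, with a median of 0.03 over the 7 against -0.0007 over all tested genes. The interval alone, which covers counting error only, excluded equality for 3 of the 7 and for 23.7% of all tested genes. These were Irx4 at 0.14 (0.04 to 0.24), Tbx5 at -0.13 (-0.24 to -0.02) and Tbx20 at -0.04 (-0.07 to -0.02). The interval narrows with counts, which were high for Tbx20 (24927 and 22394). Shares by interval are therefore not like for like between the members and all genes, here and below. Of these 3 members only Irx4 was higher in replicate 2, where 10.8% of all tested genes had an interval excluding equality in that direction. Spike-in totals as the scale shifted the median of all genes by 0.13 and changed these directions. On that scale all 7 were higher in replicate 2, with a median of 0.16, as were 84.2% of all tested genes. The interval excluded equality for 6 of the 7, all toward replicate 2, and for 47.2% of all tested genes, 44.2% toward replicate 2. Tbx20 stood at 0.09 and Irx4 at 0.27, while Tbx5, at 0.004, was the exception. The directions of Tbx20, Hand2 and Tbx5 therefore rest on the scale. Gata4, Gata6, Nkx2-5 and Irx4 were higher in replicate 2 in each of the 6 alternatives able to change a ratio. Total-count and spike-in scaling raise every ratio and the other alternatives moved these little, so this hardly checks their direction. The main intervals of Gata4 (-0.02 to 0.08), Gata6 (-0.01 to 0.10) and Nkx2-5 (-0.05 to 0.13) included equality, so their direction was not resolved. At a lower fold mark, which called 5.95% of the tested genes, none of the 7 was called either.

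The low genes had ratios further from equality, but from few counts. Only Gata5 had both the minimum of 20 counts and an interval that excluded equality. Gata5, with 98 and 51 counts, had a log2 ratio of -0.82 (exact 95% interval -1.35 to -0.33), 1.77-fold lower in replicate 2. Without the TPM minimum 9 members could be tested, and none reached the 2-fold mark, where 2.11% of 16951 genes did. The interval then excluded equality for 4 of the 9, Gata5 with the 3 above, and for 21.3% of the genes. Toward replicate 1 it did so for 3 of the 9 and 11.6% of the genes, and 2.18% of the genes had a ratio below that of Gata5. On every scale tried the Gata5 interval excluded equality, with -0.69 by spike-ins. A change of scale adds the same constant to every ratio and interval. Spike-in totals moved the upper bound for Gata5 only from -0.33 to -0.20, so these scales hardly check the difference. All 5 endocardial markers, Npr3, Cgnl1, Nfatc1, Cdh11 and Plvap, were lower in replicate 2 by scaled counts with a median of -0.38, and their sum was 100.4 TPM in replicate 1 and 84.0 in replicate 2. Of 8 epicardial markers 7 were lower, with a median of -0.63, and their sum was 85.3 and 65.3 TPM. With spike-in scaling the medians were -0.25 and -0.50. By the main scale 6842 of all 13598 tested genes were lower in replicate 2. The fibroblast markers went the other way there, with all 5 higher in replicate 2 and a median of 0.14. The part of any of these cell types in the Gata5 ratio was not tested.

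Isl1, with 14 counts in all, lay under the count minimum and its ratio of -2.22 had an interval of -5.67 to -0.31. Markers of autonomic neurons, which also express Isl1, were few, and differed in direction. Stmn2 had 161 and 105 counts, Dbh 34 and 45 and Prph 28 and 10, and the other 5 had at most 5 counts in either heart, with Chrna3 and Th at 3 and 0. Of the 8 in that list only Stmn2 passed 1 TPM, and the list summed to 4.50 and 3.33 TPM. The sinoatrial list of 6 was also mixed. Vsnl1, with 112 and 40 counts, was called lower in replicate 2, and Hcn4 (939 and 633) and Shox2 (54 and 32) had lower scaled counts there. Cacna1g (2932 and 3073) and Smoc2 (783 and 846) had higher scaled counts in replicate 2, Tbx3 (789 and 698) had a ratio of -0.07, and the list summed to 47.3 and 50.5 TPM. The part of either cell type in the Isl1 values was not tested. Hand1 had a ratio of 0.26 with an interval of -0.73 to 1.27, so that a difference was not detectable at this depth.

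**Figure D5:**
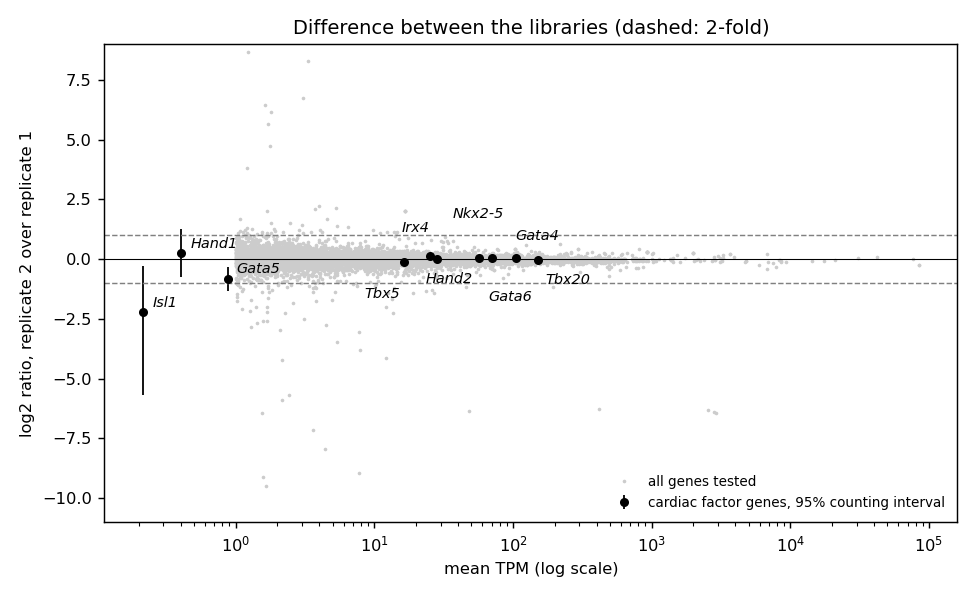
Log2 ratio of replicate 2 over replicate 1 after TMM scaling against mean TPM (log axis), for the 13598 tested genes (grey) and the 10 cardiac factors (black, with exact 95% counting intervals). The 7 expressed factors lie between -0.13 and 0.14, and Gata5, Hand1 and Isl1, which have a mean under 1 TPM, were not among the tested genes.

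Partners of these factors were nearly all present. Of 24 cofactor and partner genes 23 passed 1 TPM in both hearts. None of the 23 was called between the hearts, where 117 of 13598 tested genes (0.86%) were, so the absence of calls says little about partners. The 23 had a median log2 ratio of -0.02, or 0.11 with spike-in scaling, against -0.0007 and 0.13 over all tested genes. Hopx, a small homeodomain protein without DNA binding that acts with SRF, led at 191 and 202 TPM, followed by Mef2a (111 and 109), Tcf4 (96.3 and 105) and Srf (81.6 and 87.2). Tcf4 encodes an E protein, the dimer partner class of the HAND factors. The lowest were Nfatc4 (5.63 and 7.07 TPM), Nfatc1 (9.94 and 9.27), Cited2 (9.26 and 10.7) and Sall4, a partner of Tbx5, with 0.49 and 0.67 TPM from 37 and 53 counts.

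All 22 genes listed as known targets passed 1 TPM, and none was called between the hearts, where 0.86% of all tested genes were. By scaled counts 18 of the 22 were lower in replicate 2, with a median of -0.08, where 6842 of 13598 tested genes were lower. Of the 18, 15 had an interval excluding equality, against 12.9% of all tested genes in that direction. The interval holds counting error only and narrows with counts, which are high for targets such as Myh6 (720715 and 606258). The 2 shares are therefore not like for like. With spike-in scaling 13 were higher and 9 lower, with a median of 0.05. On that scale 84.2% of all tested genes were higher, with a median of 0.13. All 9 lower targets still had an interval excluding equality there. The highest by level were Myl2, Actc1, Myh6 and Tnnt2, at 2963 TPM or more in each heart. The lowest were Tbx2, Hcn4 (5.56 and 4.28 TPM), Tbx3 and Kcnj2, a potassium channel gene (10.5 and 11.8). The lowest ratios of replicate 2 over replicate 1 were those of Bmp10, a ligand of trabecular and atrial muscle (27.4 and 17.2 TPM), and Nppb, a natriuretic peptide (348.9 and 254.7), named after their values were seen.

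Genes of the embryonic steps before these factors were mostly low. Of 24 upstream and progenitor genes 9 passed 1 TPM, and Mesp1, the factor of early cardiac mesoderm, Shh and Hoxb1 had 0 counts in both hearts in the gene table, where 3 counts amount to 0.0834 and 0.0928 CPM. The second quantification listed Hoxb1 at 0.288 and 0.305 TPM and Shh at 0.0154 and 0.0174. The highest were Kdr, the VEGF receptor of endothelium (50.8 and 51.9 TPM), Aldh1a2, the retinoic acid enzyme (25.1 and 26.2), Pdgfra of fibroblasts (15.3 and 18.9) and Bmp7 (8.92 and 7.88). The other 12 of the 24 had some counts but did not pass 1 TPM in both hearts. They include genes at the limit of detection, such as Foxh1 with 0 and 2 counts and Crabp1 with 4 and 0.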

How the data were processed

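Total RNA of 2 heart samples was quantified per gene and per transcript on mm10 and GENCODE M21, per the notes deposited with the files. The authors deposited, per the file headers, expected counts and TPM with posterior means in an RSEM column layout, and estimated counts and TPM per transcript in a kallisto column layout. The deposited percent of each gene per transcript was replaced by shares recomputed from TPM. For programs and versions the entry is: not given in the sources used here. Genes were matched to GENCODE M21 by identifier, and 86 had no entry in the second quantification.

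Counts were rounded and scaled by TMM (edgeR 4.0.16, R 4.3.3) over annotated genes, without spike-ins, with a prior count of 0.5. Intervals are exact Clopper-Pearson at 95% on the pair of counts. Python 3.11.15, pandas 2.3.3 and scipy 1.17.1 were used, and the rule was tested on simulated data. Named genes were the 10 members, annotated genes within 10 kb of them, relatives above 1 TPM or at 0 counts, and the 4 highest and lowest members of each list. Other relatives and the markers were named where they bear on a member. The members, lists and rules were chosen with earlier results of these data known, and the grouping of transcripts by start, the motif search and the list splits and shares by scale were added after seeing the data. A comparison of parental alleles was not analysed here. The values of 1 marker gene are not reported here.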

Additional observations from a re-analysis of the deposited data

How the results depend on the processing

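No paired analysis was possible because there is a single group of 2 libraries. The number of members expressed stayed between 7 and 8 under the other quantification, posterior means, CPM, rescaled TPM, TPM thresholds of 0.5 and 2 and each library alone. The number of separated neighbours was 7 in the second quantification and 8 in the others. No member was called between the libraries under any of 9 alternatives, including DESeq2 1.42.0 size factors, spike-in scaling, a prior count of 2 and a lower fold mark. For the 7 expressed members this was largely given in advance. Their main log2 ratios lay between -0.13 and 0.14, spike-in scaling moved the median of all genes only to 0.13, and a higher TPM minimum can only remove calls. Over all genes, 117 of 13598 (0.86%) were called by the main rule and 357 of 16951 (2.11%) without the TPM minimum. With the TPM minimum raised to 5, 36 of 9824 were called, and with the lower fold mark 809 of 13598 (5.95%). Calls higher in replicate 2 made up 37.6% of the 117 and, with spike-in scaling, 53.1% of 128. That scale also turned Tbx20, Hand2 and Tbx5 from lower to higher in replicate 2. Of 124 alternative values for single members that the alternative was able to change, 53 moved beyond their spread or interval and 71 did not. Part of these moves was given in advance, because CPM and rescaled TPM are other units. For Tbx20 a mean of 151 TPM stood against 693 CPM and 332 TPM rescaled to nuclear protein-coding genes. Depth limits Gata5, Hand1 and Isl1, whose values rest on 149, 38 and 14 counts over both libraries.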

Other observations

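The erythroid GATA factor Gata1 had 2 counts in replicate 1 and 1 in replicate 2. The erythroid genes Hbb-bs and Alas2 had 84791 and 894, and 4322 and 49 counts in the same libraries. The large difference between the hearts in globin transcripts was thus not accompanied by a detectable level of Gata1 in either, and Klf1, another erythroid factor, had 4 and 0 counts.

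The lung and foregut markers Nkx2-1, Sftpc, Scgb1a1, Foxa2 and Cdh1 summed to 0.75 and 0.94 TPM, and none of the 5 passed 1 TPM.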
